A study of Mus musculus with 8 samples.

Results

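Urokinase (Plau), tissue plasminogen activator (Plat), the urokinase receptor (Plaur) and plasminogen (Plg) were followed in 8 mice whose left kidney was collected 24 h after an operation. The 4 genes were chosen by name, out of 36826 names on the array, and 7 of its 56605 probes carry them. These are 2 probes each for Plau, Plat and Plg and 1 for Plaur. Gene expression was read on 1-colour arrays, 1 per mouse, in 4 groups of 2 mice that are named here by the mouse number in the labels. Mimic mice (6 and 7) received 5 nmol of a miR-5100 mimic in 200 µl by tail vein, bound to polyethylenimine nanoparticles, a cationic polymer carrier, 2 days before the injury surgery. Control-miRNA mice (1 and 5) received the same dose and volume of a control miRNA on the same carrier before the same surgery. IRI mice (30 and 34) had the surgery with no injection: the right kidney was removed and the left renal vessels were clamped for 45 min and then released. In sham mice (1 and 4) the operation stopped at a midline incision, so that clamping and loss of the right kidney cannot be told apart in any comparison with sham. The age, sex and strain of the mice are not given in the sources used here.

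Plau and Plat encode serine proteases that cut plasminogen into plasmin, the enzyme that dissolves fibrin clots and cleaves matrix proteins. Plaur encodes a receptor anchored to the outer cell membrane that holds urokinase at the cell surface and also signals through integrins. Urokinase was named for its presence in urine and is made by tubular epithelium, while tissue plasminogen activator is best known from endothelium and plasminogen from liver.

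The sequences below identify the treatment and what the array could detect. The mature miR-5100, as RefSeq gives it on GRCm38.p6, has the sequence stated for the mimic in the study's design, with the seed (bases 2 to 8) in capitals.
mmu-miR-5100: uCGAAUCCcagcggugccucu
The member probes shown are those the results turn on, that is the second Plau probe, the Plat probe that gave signal, and the Plg probe designed on the RefSeq transcript.
Plau probe: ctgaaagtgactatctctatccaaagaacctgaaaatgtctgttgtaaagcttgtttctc
Plat probe: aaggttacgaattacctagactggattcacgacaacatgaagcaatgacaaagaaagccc
Plg probe: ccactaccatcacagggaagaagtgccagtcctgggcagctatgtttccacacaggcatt
The array files place this Plau probe, in mouse build mm9, at chr14:21659855-21660221. Its 60 bases are spread over 367 bases of genome there, so it crosses an intron. The other Plau probe is at chr14:21662487-21662546, at base 2219 of the transcript. The Plat probe is at chr8:23892531-23892590, the Plg probe at chr17:12591031-12591090 and the single Plaur probe at chr7:25260569-25260628.

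RefSeq's promoter table held 1 of the 4 members, Plaur. AP-1 is known to act on the human PLAUR promoter. The mouse Plaur promoter is shown as the only one available, so none of Plau, Plat or Plg could be set beside it. The 100 bases before its start (GRCm38.p6, plus strand, chr7:24462383-24462482) hold a match to the AP-1 motif TGANTCA, in capitals. That start is the one the promoter table uses. It lies inside the gene's annotated span, chr7:24460937-24475970, so it is not the outermost start of the gene.
Plaur promoter: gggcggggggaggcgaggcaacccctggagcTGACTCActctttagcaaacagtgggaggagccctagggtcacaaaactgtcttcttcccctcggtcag
The match covers bases 69 to 63 before the start. Over the 250 bases before the start and on both strands, TGANTCA was found in 6.75% of 32851 promoters. The Sp1 motif GGGCGG had 3 matches in Plaur and at least 1 in 32.7% of promoters, and the NF-kB consensus had 0 matches in Plaur and a match in 7.25% of promoters. A match describes these letters and was not tested as a binding site.

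Levels are given on a log2 scale relative to the 75th percentile of each array, so that 0 is the brightness of that percentile. They compare 1 probe between arrays and never 1 gene with another. All 8 arrays lay on 1 slide, and on each array 53.2% to 58.8% of 59305 spots, controls left out, passed the scanner software's test of being well above background. The 75th percentile signal was 308 and 242 in mimic, 500 and 416 in control-miRNA, 468 and 600 in IRI, and 408 and 476 in sham kidneys. Mimic arrays were therefore the dimmest. The 2 mice of a group differed, as an SD of log2 differences taken over all genes, by 0.67 in mimic, 0.51 in control-miRNA, 0.39 in IRI and 0.33 in sham mice. All tests use 1 pooled spread, so their errors may be too small for mimic mice. Of the kidney markers listed, 9 of 9 proximal tubule genes and 6 of 6 podocyte genes were well above background on every array. So were 4 of 5 thick ascending limb, 3 of 4 distal convoluted and connecting tubule and 8 of 9 collecting duct genes. Over all 21264 genes tested the number was 18036. With 2 arrays to a group, precision is limited by their number.

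**Figure D1:**
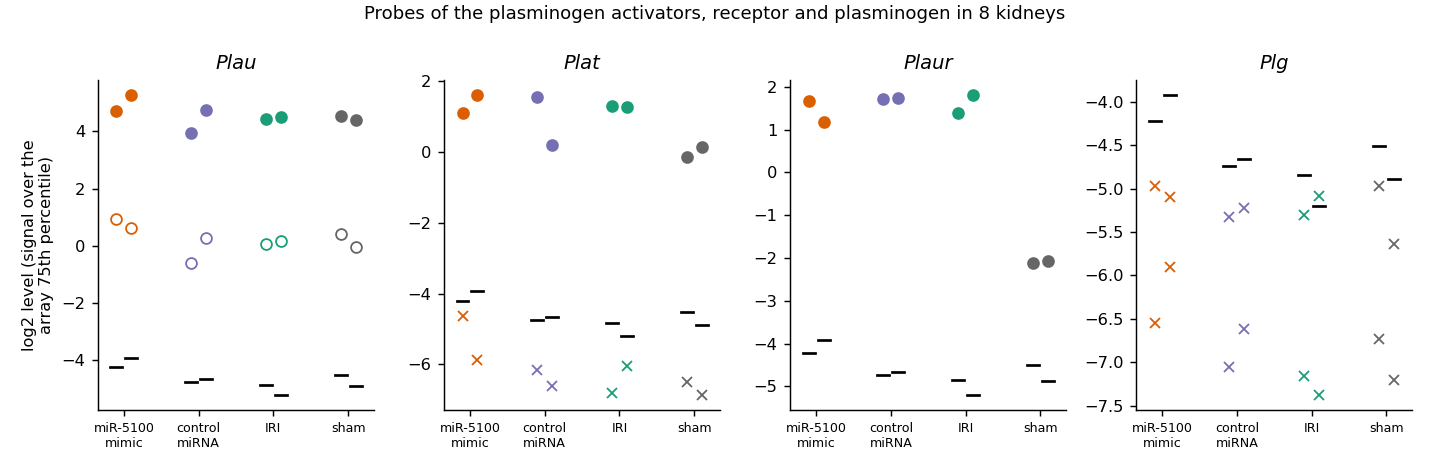
Log2 level (signal over the array's 75th percentile) of each member probe in each of the 8 kidneys, 1 panel per gene with its own scale. Filled circles are the probe used for the gene, open circles the second Plau probe, crosses probes not well above background on any array, and bars the lowest signal called well above background on that array. Plaur parts all 6 injured kidneys from both sham kidneys, and the crosses of Plg lie below the bars in all but 1 case.

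The urokinase receptor gene rose in every injured group. Plaur stood at 1.66 in mimic 6 and 1.18 in mimic 7, at 1.71 in control-miRNA 1 and 1.74 in control-miRNA 5, at 1.39 in IRI 30 and 1.82 in IRI 34, and at -2.12 in sham 1 and -2.08 in sham 4 (log2 levels). All 6 injured kidneys were high and both sham kidneys low, with no overlap, and the probe was well above background on all 8 arrays. IRI kidneys exceeded sham kidneys by 3.70 ± 0.22 (difference on the log2 scale ± SE, 2 mice in each group here and below, limma adjusted p = 0.000781), which is 13.0-fold with a 95% interval of 8.99-fold to 18.8-fold. Only 92 of the 21264 genes tested had a larger positive difference in this comparison.

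Against the same sham kidneys, control-miRNA kidneys were higher by 3.82 ± 0.22 (adjusted p = 0.000761, 14.1-fold) and mimic kidneys by 3.52 ± 0.22 (adjusted p = 0.000842, 11.5-fold). These 3 comparisons share the sham arrays. In IRI against sham limma called 18.3% of all genes, in control miRNA against sham 17.3% and in mimic against sham 28.0%. Of the 3 members tested, Plaur was called in all 3 comparisons, and Plau and Plat in none. The Plaur difference was called under 18 of 18 other settings in each comparison, and ran from 2.86 to 4.11 over them.

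In bulk kidney RNA, more cells of a type and more RNA per cell cannot be told apart. The injured-tubule marker Havcr1 was well above background on no sham array and passed the filter only through injured groups. Counting it, 8 of the 8 such markers rose in IRI kidneys. Their summed signal, in units of the 75th percentile, was 850 to 1058 in mimic, 1002 to 1015 in control-miRNA, 900 to 1069 in IRI and 56.5 to 67.5 in sham kidneys. A sum over different probes follows its brightest one, so each is also given without it. Spp1 carried 66.1% to 97.0% of this sum, and the other 7 markers summed to 104 to 270.0 in mimic, 242 to 344 in control-miRNA, 253 to 284 in IRI and 1.91 to 2.00 in sham kidneys.

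Of the 9 neutrophil markers tested 4 rose and none fell in IRI against sham. Retnlg and Cxcr2, among the 4, were below background in sham kidneys and passed the filter only through injured groups. The list had a median log2 difference of 1.17 in that comparison and of -0.88 between mimic and control-miRNA kidneys. Its sum was 75.7 to 99.7 in mimic, 51.3 to 64.4 in control-miRNA, 45.7 to 52.1 in IRI and 46.3 to 51.7 in sham kidneys, of which Csf3r carried 74.4% to 94.1%. The other 8 markers summed to 6.05 to 11.05 in mimic, 13.2 to 16.3 in control-miRNA, 7.87 to 11.1 in IRI and 2.98 to 3.06 in sham kidneys. The listed markers Mpo and Ngp were too dim to test. Ly6g was well above background on all 8 arrays. It differed by 1.17 in IRI against sham (limma adjusted p = 0.150) and by -1.35 in mimic against control miRNA. Of the 11 macrophage and monocyte markers 3 rose and 3 fell, with a median of -0.61 in IRI against sham and 0.36 in mimic against control miRNA. Their sum was 122 to 165 in mimic, 164 to 186 in control-miRNA, 171 to 177 in IRI and 94.4 to 100.4 in sham kidneys, of which Ly6c2 carried 78.5% to 91.8%. The other 10 markers summed to 21.1 to 21.5 in mimic, 15.3 to 18.8 in control-miRNA, 18.5 to 19.7 in IRI and 15.7 to 20.3 in sham kidneys. The part of these cells in the Plaur level was not tested.

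Among injured kidneys Plaur gave no called difference. The difference between mimic and control-miRNA kidneys was -0.30 ± 0.22 (adjusted p = 0.369), with a 95% interval from -0.83 to 0.23, that is 0.561-fold to 1.17-fold. Both mimic kidneys lay below both control-miRNA kidneys, by as little as 0.05 between mimic 6 and control-miRNA 1. The difference was -0.18 ± 0.22 between mimic and IRI kidneys (adjusted p = 0.568) and 0.12 ± 0.22 between control-miRNA and IRI kidneys (adjusted p = 1.00). By group mean the order of Plaur was control-miRNA 1.72, IRI 1.60, mimic 1.42 and sham -2.10, and the first 3 did not differ from their neighbours beyond the spread.

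Urokinase itself gave no called difference in any comparison. Plau stood at 4.71 in mimic 6 and 5.27 in mimic 7, at 3.95 in control-miRNA 1 and 4.73 in control-miRNA 5, at 4.42 in IRI 30 and 4.48 in IRI 34, and at 4.51 in sham 1 and 4.40 in sham 4. IRI and sham kidneys overlapped. Their difference was -0.01 ± 0.30 (adjusted p = 0.984), with a 95% interval from 0.608-fold to 1.62-fold. The second, intron-crossing probe was well above background on 8 of 8 arrays and gave -0.07 ± 0.33 (adjusted p = 0.909, over all probes with no filter).

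The highest Plau levels were those of the mimic kidneys, which lay above both IRI and both sham kidneys but overlapped with control-miRNA kidneys at 4.71 against 4.73. Mimic exceeded control-miRNA kidneys by 0.65 ± 0.30 (adjusted p = 0.171; 95% interval -0.05 to 1.36), IRI kidneys by 0.55 ± 0.30 (adjusted p = 0.212) and sham kidneys by 0.54 ± 0.30 (adjusted p = 0.210). The second probe gave 0.95 ± 0.33 for mimic against control miRNA (adjusted p = 0.114). None of these passed the test. The mimic arrays were also the dimmest, and with array brightness as a covariate these differences turned to -0.16, -0.50 and -0.22. Both mimic arrays were dimmer than every other array, so this covariate cannot separate brightness from the mimic group well. With slide column as a covariate the same differences were 1.30, 1.19 and 0.54. Control-miRNA and IRI arrays, however, lay in other slide columns than mimic arrays. Control-miRNA kidneys differed from sham by -0.12 ± 0.30 (adjusted p = 0.812) and from IRI by -0.11 ± 0.30 (adjusted p = 1.00). The order of means was mimic 4.99, sham 4.46, IRI 4.45 and control-miRNA 4.34, and no neighbours differed beyond the spread.

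Tissue plasminogen activator lay higher in injured kidneys without passing the test. Plat stood at 1.11 in mimic 6 and 1.63 in mimic 7, at 1.57 in control-miRNA 1 and 0.20 in control-miRNA 5, at 1.30 in IRI 30 and 1.28 in IRI 34, and at -0.14 in sham 1 and 0.16 in sham 4. No injured kidney was as low as a sham kidney, but control-miRNA 5 lay only 0.05 above sham 4 and far from the other 5 injured kidneys. The difference from sham was 1.36 ± 0.43 in mimic (adjusted p = 0.0541), 0.88 ± 0.43 in control-miRNA (adjusted p = 0.202) and 1.28 ± 0.43 in IRI kidneys (adjusted p = 0.0825). These are 2.57-fold, 1.83-fold and 2.43-fold, with 95% intervals of 1.27-fold to 5.18-fold, 0.909-fold to 3.70-fold and 1.20-fold to 4.90-fold.

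The call on Plat changed with which arrays entered the fit. Fitted on the IRI and sham arrays alone, the same difference of 1.28 had a limma adjusted p of 0.00683, and without either control-miRNA mouse it had 0.0204. The mimic difference of 1.36 had an adjusted p of 0.0149 without either control-miRNA mouse. Without control-miRNA 5 the control-miRNA difference from sham was 1.56 (adjusted p = 0.0274), and without control-miRNA 1 it was 0.19 (adjusted p = 0.751). Over 18 other settings the adjusted p of IRI against sham ran from 0.00683 to 0.311. Between injured groups Plat differed by 0.48 ± 0.43 for mimic against control miRNA (adjusted p = 0.444), 0.08 ± 0.43 for mimic against IRI (adjusted p = 0.905) and -0.40 ± 0.43 for control miRNA against IRI (adjusted p = 1.00). Without control-miRNA 5 the first was -0.20 and the last 0.28. The order of means was mimic 1.37, IRI 1.29, control-miRNA 0.89 and sham 0.01, and no neighbours differed beyond the spread. The other Plat probe, at chr8:23886301-23886360, never stood well above background.

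**Figure D2:**
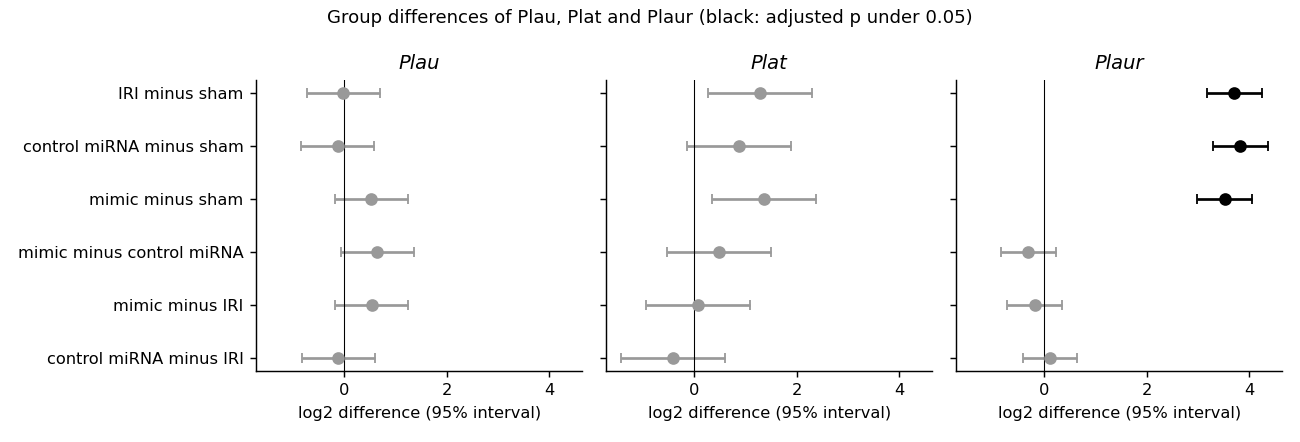
Log2 difference (point) and 95% interval (bar) of Plau, Plat and Plaur in the 6 comparisons, from limma on all 8 arrays, with the first-named group minus the second. Black marks an adjusted p under 0.05, which only Plaur against sham reached, at 3.52 to 3.82.

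Plasminogen was not measurable in these kidneys. The RefSeq-based Plg probe stood at -4.97 and -5.10 in mimic, -5.33 and -5.22 in control-miRNA, -5.31 and -5.09 in IRI, and -4.97 and -5.64 in sham kidneys. The second Plg probe stood between -7.38 and -5.90. Neither was well above background on any array, so Plg did not pass the filter and no fold is given. The lowest signal called well above background lay between -5.20 and -3.92, and was highest on the 2 mimic arrays. As a check on liver-type transcripts, 8 of 10 hepatocyte markers passed the filter and 7 were well above background on all arrays, among them Alb, which encodes albumin, at -2.54 to -1.68 in mimic, -2.23 to -2.09 in control-miRNA, -2.01 to -1.60 in IRI and -1.40 to -0.50 in sham kidneys. Apoa1 and Ahsg did not pass the filter. In IRI against sham 1 of these 8 rose, the fibrinogen chain gene Fgb, and 3 fell. F2, 1 of the 3, was below background in both IRI kidneys and passed the filter only through sham kidneys. Summed signals of the list were 52.1 to 91.0 in mimic, 23.4 to 113.9 in control-miRNA, 71.8 to 81.7 in IRI and 99.2 to 101.5 in sham kidneys, of which Serpina1a carried 24.1% to 82.2%. The other 7 markers, Fgb among them, summed to 16.2 to 18.5 in mimic, 16.8 to 43.0 in control-miRNA, 49.4 to 54.5 in IRI and 21.6 to 24.9 in sham kidneys.

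The other genes of the plasminogen system were taken from a list of 48, of which 38 were measured. The list was chosen with earlier results of these data known, so its counts beside all genes are not read as enrichment. In IRI against sham 12 rose, 5 fell and 21 did not pass the test, with a median log2 difference of 0.21 against -0.08 over all genes, of which 9.45% were called higher and 8.85% lower. In control miRNA against sham 16 rose and 3 fell, where 9.55% of all genes were higher and 7.79% lower. In mimic against sham 16 rose and 6 fell, where 15.2% were higher and 12.8% lower. The same 11 list genes rose in all 3 comparisons, which share the sham arrays, and 3 fell in all 3. The count in IRI against sham was 8 without either sham mouse or either IRI mouse. In control miRNA against sham it was 6 without sham 1 or sham 4, 8 without control-miRNA 1 and 12 without control-miRNA 5, IRI 30 or IRI 34, and in mimic against sham 8 without sham 1 or sham 4. Of the genes counted as risen in control miRNA and in mimic against sham, Itga5 and Mmp3 were below background in sham kidneys and passed the filter only through injured groups.

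Among proteases that activate the cascade, 1 of 5 measured rose and 3 fell in IRI against sham. St14, which encodes matriptase, an activator of pro-urokinase, rose by 0.78 ± 0.18 (adjusted p = 0.0283). Klkb1, which encodes plasma prekallikrein, fell by 2.41 ± 0.31 (difference -2.41; adjusted p = 0.00475). The hyaluronan-binding protease gene Habp2 fell (-0.79 ± 0.15, adjusted p = 0.0171), as did Hpn, which encodes hepsin (-0.74 ± 0.19, adjusted p = 0.0386). F12 was too dim to test. In the same comparison 7 of 9 proximal tubule markers fell and none rose (median -1.90), with a summed signal of 766 to 823 in IRI and 1594 to 1694 in sham kidneys. Kap carried 41.4% to 78.2% of this sum over all arrays, and the other 8 markers summed to 277 to 306 in IRI and 918 to 935 in sham kidneys. The part of that cell type in these genes was not tested.

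Of the 6 inhibitors measured 2 rose and 1 fell. Cpb2, whose product removes plasminogen-binding residues from fibrin, rose by 2.26 ± 0.38 (adjusted p = 0.0109). Serping1, which encodes the C1 inhibitor, fell (-1.66 ± 0.21, adjusted p = 0.00405). Serpinf2, which encodes the main plasmin inhibitor, stood at 3.57 and 5.28 in mimic, 3.26 and 4.98 in control-miRNA, 4.29 and 4.98 in IRI, and 5.94 and 5.68 in sham kidneys, and its difference of -1.17 ± 0.70 in IRI against sham did not pass the test (adjusted p = 0.282).

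Of 17 measured binding sites and partners 6 rose and 1 fell in IRI against sham. Anxa2 and S100a10 encode the subunits of a surface complex that binds plasminogen and tissue plasminogen activator. Anxa2 stood at 7.06 and 6.56 in mimic, 7.03 and 6.75 in control-miRNA, 6.67 and 6.94 in IRI, and 3.54 and 3.68 in sham kidneys, and rose by 3.20 ± 0.23 in IRI (adjusted p = 0.000983). S100a10 rose by 2.44 ± 0.20 (adjusted p = 0.00114). The integrin subunits Itga3 (1.52 ± 0.21, adjusted p = 0.00560) and Itgb1 (0.93 ± 0.17, adjusted p = 0.0156) also rose; integrins of this kind are partners of the urokinase receptor. Itgam, the alpha chain of a leukocyte integrin that binds the receptor, fell (-2.05 ± 0.48, adjusted p = 0.0304). This rests on 1 probe, as the other Itgam probe was never well above background. The leukocyte integrin beta chain gene Itgb2 did not fall (0.21, adjusted p = 0.466). Against sham it was called higher in control-miRNA (0.77) and mimic kidneys (1.00). The plasminogen receptor gene Plgrkt did not pass the test (0.21, adjusted p = 0.417). Other probes of some genes differed in size. A second Itga3 probe, well above background on all 8 arrays, gave 0.39. For Itgav, which rose by 0.90, other probes gave 2.26 (well above background on 6 arrays) and -0.14 (on 7 arrays).

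Of 10 measured substrates 3 rose and none fell in IRI against sham, and the 3 were the fibrinogen chains, from which the fibrin that plasmin dissolves is made. Fgb rose by 7.20 ± 0.63 (adjusted p = 0.00135), Fgg by 6.01 ± 0.58 (adjusted p = 0.00181) and Fga by 5.34 ± 0.62 (adjusted p = 0.00317). A second Fga probe, well above background on all 8 arrays, gave 3.22 in this comparison and -1.88 in mimic against IRI. Tgfb1, whose latent product plasmin can activate, had 0.68 ± 0.21 (adjusted p = 0.0681).

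**Figure D3:**
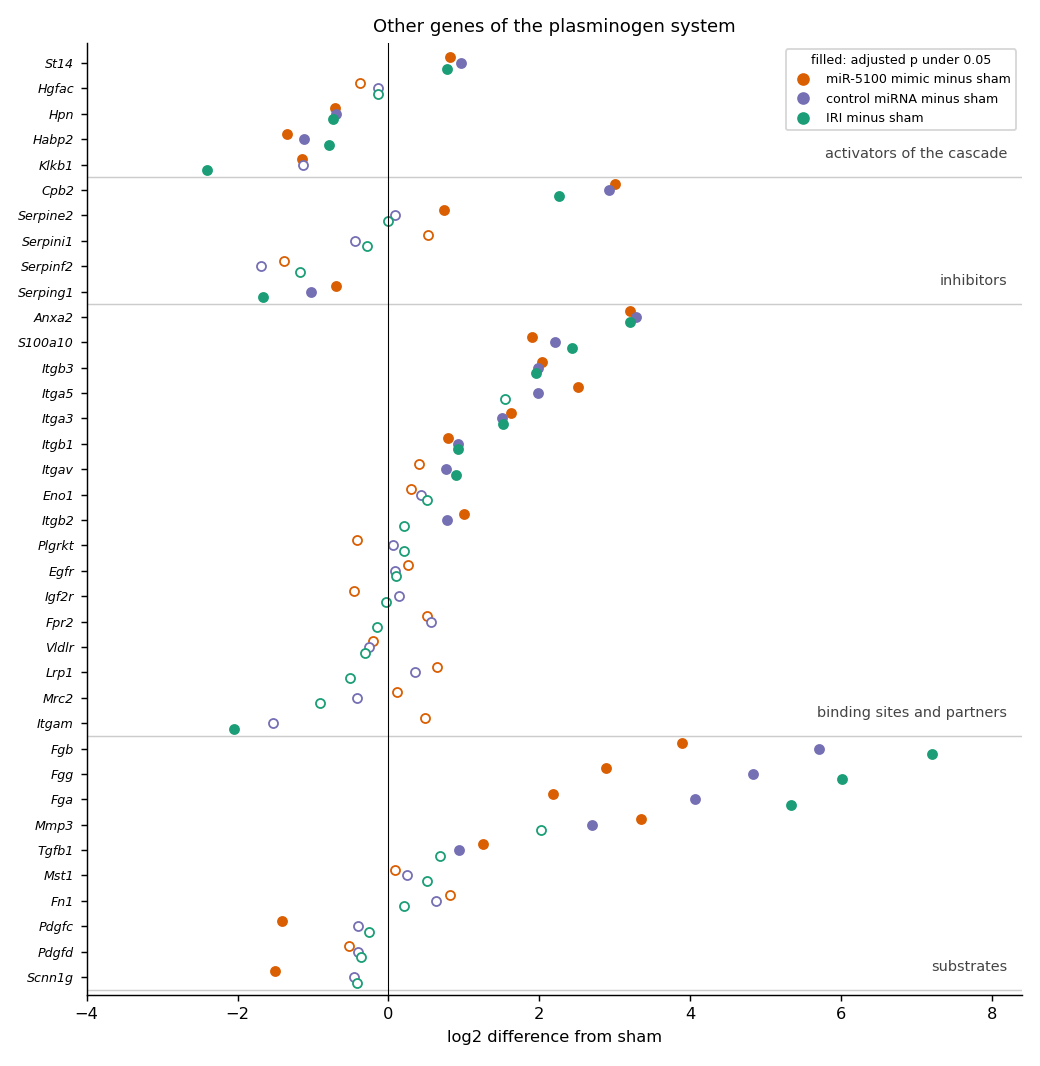
Log2 difference from sham of measured genes of the plasminogen system list in mimic, control-miRNA and IRI kidneys, grouped by role. Filled circles passed an adjusted p of 0.05, and the 3 fibrinogen chains lie farthest to the right in IRI kidneys, between 5.34 and 7.20. Itga5 and Mmp3 were below background in sham kidneys and passed the filter only through injured groups, so their filled circles are not read as tests passed.

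Between mimic and control-miRNA kidneys limma called 0 of 38 list genes and 0 of all genes (0.0%), while 7188 genes had an unadjusted p under 0.05. With normexp background correction it called 5828 genes and 10 of the list, and without mimic 6 6318 and 9. Between mimic and IRI kidneys 5 list genes were higher and 7 lower, where 16.0% of all genes were called, 10.5% higher and 5.53% lower. Mimic and IRI mice differ in injection, carrier and slide row as well as in miR-5100, and these cannot be told apart in this comparison. Scnn1g, which encodes a sodium channel subunit that plasmin can cleave, was lower (-1.08 ± 0.19), and so were Fgg (-3.13 ± 0.58), Fgb (-3.31 ± 0.63) and Fga (-3.15 ± 0.62), while Itgam was higher (2.53 ± 0.48), each with adjusted p = 0.0386. The count of 12 was 15 without mimic 6 and 0 without any other mouse. It was also 0 with array weights, with slide column or array brightness as a covariate, and on the 2 groups alone. In the same comparison 7 of 8 fibroblast and pericyte markers (median log2 difference 1.64), 5 of 10 endothelial markers and 4 of 11 macrophage and monocyte markers were higher, and 1 of the last was lower. Summed signals of the fibroblast list were 87.3 to 87.6 in mimic and 21.2 to 28.6 in IRI kidneys, and of the endothelial list 20.7 to 28.9 in mimic and 13.1 to 13.4 in IRI kidneys. Without its leading gene Col1a2 the fibroblast list summed to 59.5 to 64.3 in mimic and 15.7 to 20.8 in IRI kidneys. Without Emcn the endothelial list summed to 13.3 to 20.3 in mimic and 8.23 to 9.10 in IRI kidneys. The part of these cells in the list genes was not tested. Between control-miRNA and IRI kidneys limma called 0 of 38 and 0 of all genes (0.0%), and 870 genes had an unadjusted p under 0.05.

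**Figure D4:**
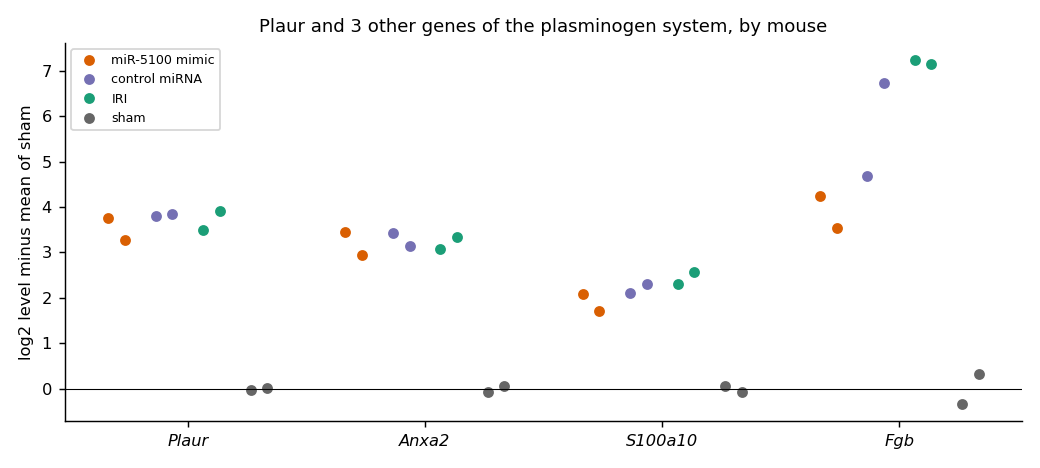
Log2 level minus the mean of the 2 sham kidneys for Plaur and 3 other genes of the system, 1 point per mouse. Plaur, Anxa2 and S100a10 keep the 6 injured kidneys close together, while both mimic kidneys are the lowest injured kidneys for Fgb.

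The genes whose levels ran most like each member were taken from 4851 named genes with an SD of at least 0.5 over the 8 arrays, all of them correlations over the same 2 sham and 6 injured kidneys. For Plaur these were Anxa2 (Pearson r = 0.997), Havcr1 (0.996), Krt20 (0.996), Pvr (0.995) and Nrcam (0.995), and 567 genes had an r over 0.9. Havcr1 and Krt20 are known markers of the injured tubule. Havcr1 was well above background on no sham array, so its r rests on dim values in sham kidneys. For Plat the genes most like it were Krt5 (0.967), Hr (0.966), Scin (0.965), Serpinb5 (0.956) and Krt14 (0.952), with 23 genes over 0.9. For Plau they were Atp6v1g2 (0.963), Prkch (0.955), Cd5l (0.954), Tssk5 (0.936) and Thbs3 (0.927), with 22 genes over 0.9. Plau itself had an SD of 0.375, below the 0.5 asked of the genes set beside it. Its r with array brightness (log2 75th percentile) was -0.81, where that of Plat was -0.16 and that of Plaur -0.055. The part of array brightness in these patterns was not tested. Plg had no level above background, so no genes like it are given.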

How the data were processed

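Total RNA from 30 mg of left kidney was labelled with Cy3 from 50 ng, per the labels' protocols, and read on 1 Agilent array per mouse. The submitters' processing notes name Agilent Feature Extraction 12.0.3.1. Per the file headers, the intensity it deposited for each spot had background taken off and a spatial trend removed, with no scaling from array to array. The authors' processed table gives a linear ratio, each probe over its own median of 8 arrays; how those arrays were scaled is not known from the sources used here. It served as an alternative only, and the arrays' median ratios lay between 0.992 and 1.02. Row and injection cannot be told apart on the slide.

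Control spots were dropped, as were 79 to 127 spots per array that the scanner software marked as outliers. No spot was saturated. Levels are log2 of the processed intensity, as deposited, minus the array's 75th percentile. Probes well above background on both arrays of a group were kept (32216), and the brightest probe stood for its gene. Of 56605 probes 33762 were named by RefSeq accession, 9871 by symbol and 310 by an older symbol. Tests used limma 3.58.1 in R 4.3.3, 1 mean for each group over the 8 arrays together, Benjamini-Hochberg adjustment over 21264 genes and a threshold of 0.05. The labels number the mice separately, but nothing further says how they were kept, so p-values measure the spread between these samples. The procedure was run on simulated data in which each gene had the same spread in every group. That simulation does not cover the wider spread of mimic mice. Named genes are the members, up to 4 genes per role by smallest p in IRI against sham, the 5 with the smallest p called between injured groups, and the 5 most correlated with each member. A measured gene of the list that counts include is not reported here by name or in the plots. Other named genes were chosen after their values were seen. The members and lists were chosen with earlier results of these data known. Alternatives were other background corrections, scalings, filters, probe rules, covariates, array weights, the deposited ratios, fits on 2 groups, and leaving out each mouse.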

Additional observations from a re-analysis of the deposited data

How the results depend on the processing

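Of 18 alternatives per result, 10 changed a setting and 8 left out a mouse. Plaur against sham kept its direction and its call under all of them in each of 3 comparisons. No paired analysis was possible because the groups share at most 1 replicate number, which 2 separate mice carry. For the changes below the cause was not tested, except that leaving out a mouse or fitting 2 groups alone leaves fewer arrays.

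With array brightness as a covariate Plau turned to 0.28 (IRI against sham), -0.22 (mimic against sham), -0.16 (mimic against control miRNA) and -0.50 (mimic against IRI), and Plaur to 0.34 (mimic against control miRNA) and 0.64 (mimic against IRI). With slide column Plau moved the other way, to -0.65 (IRI against sham), -0.76 (control miRNA against sham), 1.30 (mimic against control miRNA) and 1.19 (mimic against IRI), none passing the test. In these comparisons the groups lay in different slide columns, so column and group are largely confounded and the covariate cannot separate them well. Both mimic arrays were dimmer than every other array, so the same limit holds for brightness in comparisons with mimic. Normexp correction gave 0.0041 for Plau in IRI against sham, and the slide column as a covariate -0.21 for Plat in mimic against IRI. Plat passed the test in IRI against sham with normexp (1.16), with array weights and on 2 groups alone (1.28 each). In mimic against sham it passed with normexp (1.17), quantile scaling and the deposited ratios (1.40 each), and with probes bright on all arrays or 2 groups alone (1.36 each).

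Leaving out 1 mouse, log2 differences ran as follows. Against sham, Plau ran from -0.065 to 0.045 in IRI, -0.51 to 0.27 in control-miRNA and 0.26 to 0.81 in mimic kidneys, and Plat from 1.13 to 1.43 in IRI, 0.19 to 1.56 in control-miRNA and 1.10 to 1.62 in mimic kidneys. For mimic against control miRNA Plau ran from 0.27 to 1.04, Plat from -0.20 to 1.17 and Plaur from -0.54 to -0.063. For mimic against IRI Plau ran from 0.27 to 0.82, Plat from -0.18 to 0.34 and Plaur from -0.42 to 0.055. For control miRNA against IRI Plau ran from -0.50 to 0.28, Plat from -1.09 to 0.28 and Plaur from -0.093 to 0.33. A group left with 1 mouse was assumed to vary like the others. Counts of all genes called ran from 801 to 5956 (IRI against sham), 694 to 5722 (control miRNA against sham), 1100 to 7339 (mimic against sham), 0 to 6318 (mimic against control miRNA) and 0 to 7534 (mimic against IRI). Counts of list genes ran from 8 to 20, 6 to 22, 8 to 21, 0 to 9 and 0 to 15 in the same order of comparisons.

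Under other settings, the 3891 genes called in IRI against sham became 2450 with no filter, 821 with slide column, 1857 with brightness, 7995 with array weights and 6785 on 2 groups, and the 17 list genes 7 with slide column and 11 with brightness. In control miRNA against sham, 3687 became 2279 with no filter, 689 with slide column and 6104 with weights, and 19 list genes became 3 with slide column. In mimic against sham, 5964 became 3853 with no filter, 115 with brightness, 3474 with weights and 3039 on 2 groups, and 22 list genes became 1 with brightness and 14 on 2 groups. In mimic against control miRNA, 0 became 5828 with normexp and 1495 with probes bright on all arrays, and 0 list genes became 10 and 2. In mimic against IRI, 3409 became 10340 with normexp, 11947 with no filter and 0 with slide column, brightness, weights or 2 groups, and 12 list genes became 22 with normexp, 7 with quantile scaling or the deposited ratios, and 0 with those last 4. In control miRNA against IRI, 0 became 1 with probes bright on all arrays and 3 with weights. The median of all genes moved most with no filter, to 0.50 in mimic against IRI.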

Other observations

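Itga5, the alpha chain of the fibronectin-binding integrin, did not rise well above background on either sham array, and neither did Mmp3, which encodes a matrix metalloproteinase whose zymogen plasmin can activate. Both passed the filter only through injured groups, so no p against sham is given. Their bounds set the injured group's mean against the lowest signal called well above background on each sham array, or the probe's own signal where that was higher. Against sham, Itga5 was at least 4.90-fold higher in mimic, at least 3.38-fold in control-miRNA and at least 2.49-fold in IRI kidneys. Mmp3 was at least 4.32-fold higher in mimic, at least 2.75-fold in control-miRNA and at least 1.73-fold in IRI kidneys. Mimic and IRI kidneys, where both probes were well above background, gave no called difference for either gene (limma adjusted p = 0.141 for Itga5 and 0.190 for Mmp3). These genes were chosen after their values were seen.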
